A study of Mus musculus with 2 samples.

Results

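The genes described here carry the signal of epidermal growth factor from the cell surface to Ras. They are the receptor genes Egfr, Erbb2 and Erbb3, the adaptor genes Shc1 and Grb2, the exchange factor gene Sos1, and the Ras genes Hras and Nras, 8 of 21887 protein-coding genes. A peak was counted for a gene when any of its bases lay inside the gene or within 5 kb of it on the mouse build GRCm38. This rule took in 11 of the 12333 peaks listed for ALKBH5-FLAG and 5 of the 3378 listed for IgG. The rule uses names and positions only, and no peak value.

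The peaks came from CUT&Tag, in which an antibody brings the transposase Tn5 to chromatin and the DNA cut around the antibody is sequenced. Both reactions were made from Hepa1-6 cells, a mouse hepatoma line, after overnight infection with an adenovirus encoding FLAG-tagged ALKBH5, a demethylase that acts on N6-methyladenosine in RNA. One group is the ALKBH5-FLAG reaction and the other the IgG reaction, whose antibody has no target and which shows where DNA is cut without one, with 1 library in each. The IgG cells thus carried the virus too, and neither uninfected cells nor cells without ALKBH5 were part of the comparison. The protein studied was supplied by the virus, above whatever the cells make themselves. The series text speaks of primary hepatocytes, while the sample labels say Hepa1-6. For the IgG sample the treatment tag reads ALKBH6-FLAG, although the virus in its protocol is that of ALKBH5. With 1 library per group no difference below has a replicate check, and no test between the libraries was made. Peak lists do not measure expression, so the cell type could not be checked by its markers. Of 8 hepatocyte and hepatoma genes, Afp and Foxa2 had an ALKBH5 peak within 5 kb, and of 4 markers of other cells Vim did. The share was 25% in each of these lists, beside 43.2% of all protein-coding genes.

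EGFR and its relatives ErbB2 and ErbB3 are receptor tyrosine kinases that pair up when a ligand binds. ErbB2 has no known ligand of its own, and ErbB3 has little kinase activity and works through its partners. The phosphorylated receptor recruits the adaptors Shc1 and Grb2, Grb2 brings the exchange factor Sos1 to the membrane, and Sos1 loads Ras proteins such as H-Ras and N-Ras with GTP. EGFR is abundant in liver and takes part in regeneration after injury.

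Promoter sequences are printed for some of the starts that an ALKBH5 peak touched and for that of Hras. The windows are from RefSeq on GRCm38.p6, 250 bp before to 50 bp after an annotated start, and 7 of the 8 genes have at least 1. Shc1 (chr3:89418301-89418600, plus strand), Sos1 (chr17:80480404-80480703, minus strand) and Nras (chr3:103058035-103058334, plus strand) are shown because an ALKBH5 peak touched them. Hras (chr7:141193955-141194254, minus strand) is shown as the gene with no peak. Mien1 (chr11:98438939-98439238, minus strand) and Pa2g4 (chr10:128565885-128566184, minus strand) are neighbours that each had a start under a peak counted for Erbb2 or Erbb3. Capitals mark matches on either strand to GGGCGG (the GC box), CCGGAAG (an ETS motif), TGACTCA (AP-1), CCAAT or TATAAA, and adjacent matches run together.
Shc1: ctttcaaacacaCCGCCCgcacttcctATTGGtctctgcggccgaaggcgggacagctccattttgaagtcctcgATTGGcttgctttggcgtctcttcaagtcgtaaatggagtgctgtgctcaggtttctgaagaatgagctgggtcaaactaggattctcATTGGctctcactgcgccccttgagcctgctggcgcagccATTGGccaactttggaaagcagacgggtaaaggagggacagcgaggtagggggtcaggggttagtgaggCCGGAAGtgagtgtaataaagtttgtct
Sos1: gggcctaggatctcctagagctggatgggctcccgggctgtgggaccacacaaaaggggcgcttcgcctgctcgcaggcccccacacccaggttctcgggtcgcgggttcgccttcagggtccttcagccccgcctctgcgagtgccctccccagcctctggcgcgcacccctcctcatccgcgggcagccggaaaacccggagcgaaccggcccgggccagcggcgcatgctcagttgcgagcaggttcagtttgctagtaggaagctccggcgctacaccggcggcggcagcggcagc
Nras: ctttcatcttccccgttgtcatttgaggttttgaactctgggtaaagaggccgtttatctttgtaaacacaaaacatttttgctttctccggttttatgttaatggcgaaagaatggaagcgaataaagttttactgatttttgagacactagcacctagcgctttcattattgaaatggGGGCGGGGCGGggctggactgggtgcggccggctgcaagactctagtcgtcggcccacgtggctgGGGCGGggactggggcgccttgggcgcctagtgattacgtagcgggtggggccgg
Hras: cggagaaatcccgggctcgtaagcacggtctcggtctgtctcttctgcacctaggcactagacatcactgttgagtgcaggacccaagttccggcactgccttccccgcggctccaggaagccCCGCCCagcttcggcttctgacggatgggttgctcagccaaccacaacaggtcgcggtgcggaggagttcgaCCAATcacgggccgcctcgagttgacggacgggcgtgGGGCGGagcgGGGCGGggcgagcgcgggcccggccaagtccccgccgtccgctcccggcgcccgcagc
Mien1: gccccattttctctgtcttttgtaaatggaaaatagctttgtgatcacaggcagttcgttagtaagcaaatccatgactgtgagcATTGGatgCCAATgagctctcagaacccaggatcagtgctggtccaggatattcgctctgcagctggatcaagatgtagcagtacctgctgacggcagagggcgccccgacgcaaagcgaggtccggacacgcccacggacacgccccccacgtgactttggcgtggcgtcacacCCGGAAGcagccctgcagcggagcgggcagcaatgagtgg
Pa2g4: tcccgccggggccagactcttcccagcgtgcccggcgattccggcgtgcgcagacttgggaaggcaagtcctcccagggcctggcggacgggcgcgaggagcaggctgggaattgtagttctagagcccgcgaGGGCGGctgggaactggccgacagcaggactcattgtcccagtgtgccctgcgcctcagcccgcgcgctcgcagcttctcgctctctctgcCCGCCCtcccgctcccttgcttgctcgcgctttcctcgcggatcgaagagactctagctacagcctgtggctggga

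An ALKBH5 peak was listed for 7 of the 8 genes, and Hras was the exception. Over all protein-coding genes the share was 43.2%. An IgG peak was listed for 5 of the 8, Egfr, Erbb2, Erbb3, Sos1 and Nras, where the share over all protein-coding genes was 12.6%. Only Shc1 and Grb2 had an ALKBH5 peak and no IgG peak, a pattern that 32.5% of protein-coding genes showed. These counts depended on the margin and the threshold: IgG peaks were listed for 2 genes without a margin, 3 within 1 kb, 3 at a fold of 5 or more and 0 with both lists held to a −log10 q of at least 5. An ALKBH5 peak without an IgG peak was then listed for 4 genes without a margin, 4 at that fold and 6 at that q. The median −log10 q was 4.87 in the ALKBH5 list and 3.29 in the IgG list. No share over all protein-coding genes is given at these settings, so these shifts cannot be called particular to the 8 genes. The pattern of the other 5 genes, a peak in each list, was found at 2336 protein-coding genes (10.7%), and the pattern of Hras, a peak in neither, at 12023 (54.9%). By gene length, the ALKBH5 share was 28.2% in genes of up to 10 kb, where Hras and Nras fall. The share was 48.9% from 10 to 30 kb, where Erbb2, Erbb3 and Shc1 fall. It was 54.3% from 30 to 100 kb (Grb2 and Sos1) and 53.1% above that (Egfr). The IgG share rose over the same length classes, with 7.17%, 13.2%, 16.1% and 21.2%.

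**Figure D1:**
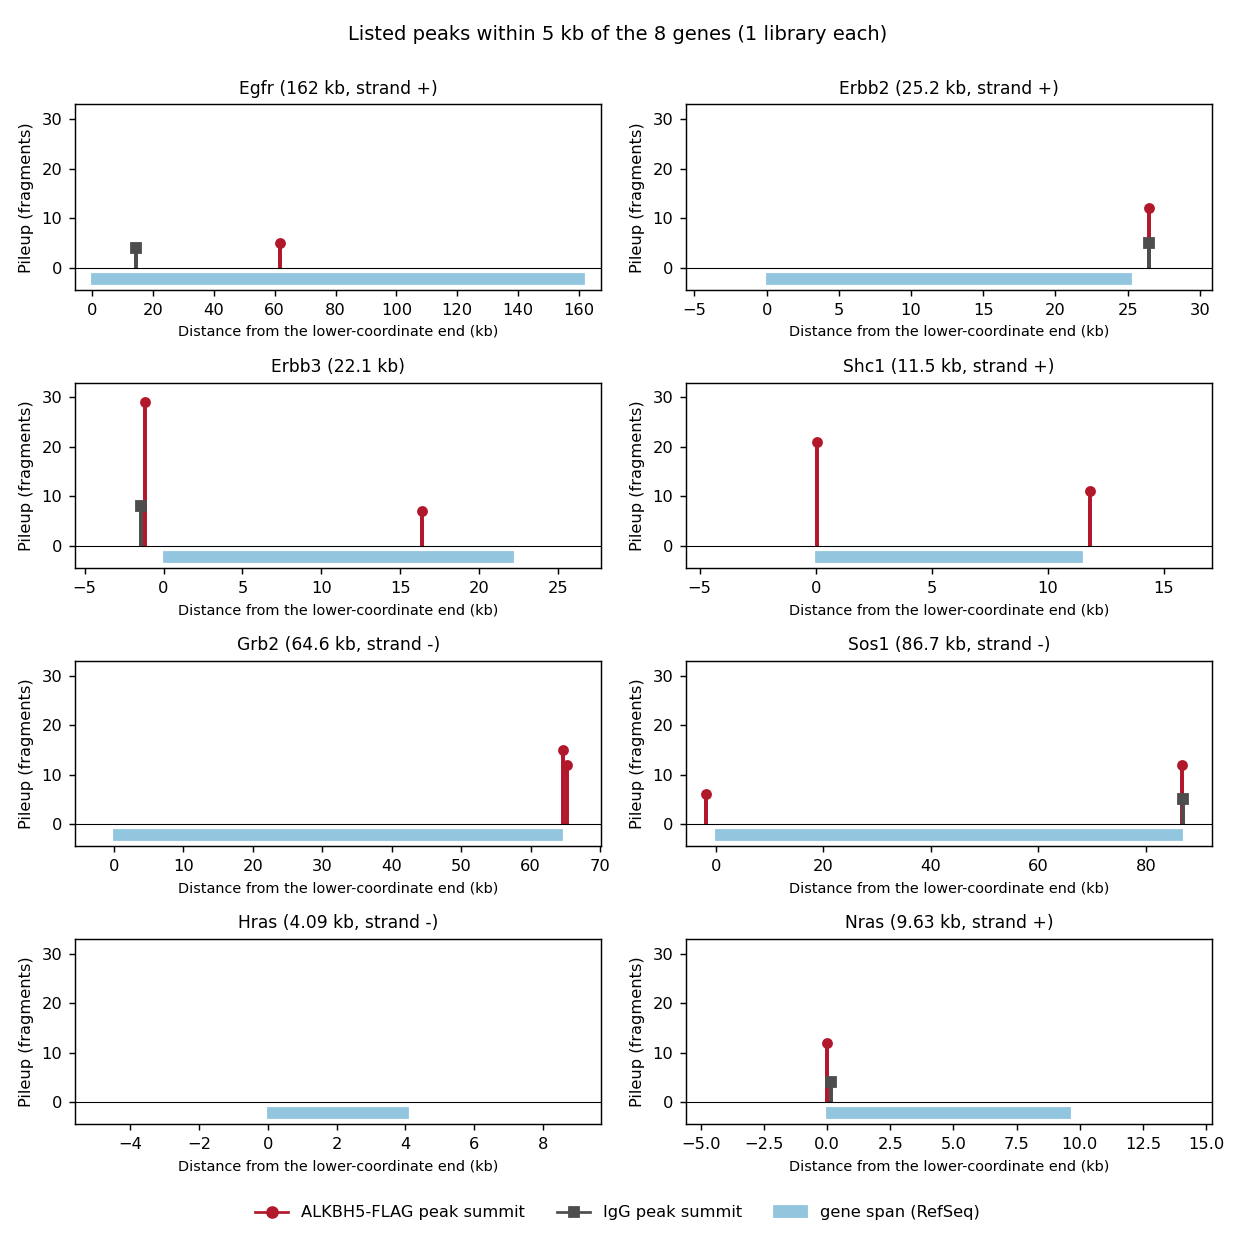
Pileup at the summit of each listed peak (fragments, vertical axis) against its distance from the lower-coordinate end of the gene (kb, horizontal axis, to scale within each panel) for the 8 genes. Red circles are ALKBH5-FLAG peaks, grey squares IgG peaks and the blue bar the gene span. The tallest peak, with 29 fragments, lies outside Erbb3, and the panel of Hras is empty.

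Of the 11 ALKBH5 peaks, 5 had their summit within 1 kb of the start of the gene itself, at Shc1, Grb2 (2 peaks), Sos1 and Nras. For 3 more, at Erbb2, Erbb3 and Shc1, the nearest annotated start belonged to a neighbouring gene and lay within 1 kb. The remaining 3, at Egfr, Erbb3 and Sos1, had no protein-coding start within 1 kb among the starts used here. Together 8 of the 11 summits lay within 1 kb of such a start. The share was 59.6% over 9322 ALKBH5 peaks within 5 kb of a protein-coding gene on chromosomes that have a listed start. Genes without a promoter window had no start in this count, so that share may be too low. A peak within 1 kb of either end of the gene was listed for 4 of the 8 genes, namely Shc1, Grb2, Sos1 and Nras, against 31.1% of protein-coding genes. Of the adaptor, exchange factor and Ras genes all but Hras had a peak there, and none of the 3 receptor genes did. The peaks beyond Erbb2 and Erbb3 missed this limit by little, at 1059 and 1013 bp, and with a limit of 3 kb the count was 6 of 8, beside 35.5% of protein-coding genes. Without the peaks that share bases with IgG, Shc1 and Grb2 alone had a gene-end peak within 1 kb. No share over the whole list is given for that count or for the 5 peaks at a gene's own start. The strand of Erbb3 is not in the table of promoters used here, so its distances are given from both ends.

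Egfr, the longest of the genes at 162 kb (chromosome 11, 16752203 to 16913907, plus strand), had weak peaks far from its start. The ALKBH5 peak (16813792 to 16813991) had a pileup, the number of fragments stacked at the summit, of 5 (95% Poisson interval 1.62 to 11.7, counting error only), with a fold enrichment of 5.32. Its summit lay 61689 bp downstream of the start, inside the gene and also inside Egfros, a long noncoding RNA gene. Fold enrichment is the authors' value for pileup plus 1 over local background plus 1, and the background here came to 0.129 fragments. The IgG peak (16766342 to 16766555) had a pileup of 4 and a fold of 4.61, and lay 14265 bp downstream of the start. The summits were 47424 bp apart, so the lists shared no base at Egfr. By pileup the ALKBH5 peak stood at the 13.8th percentile of its list and the IgG peak at the 36.9th of its own. The promoter window of Egfr, with 15 CpG dinucleotides, was touched by neither list.

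Erbb2 (chromosome 11, 98412484 to 98437716, plus strand) had 1 peak in each list, both beyond its 3′ end. The ALKBH5 peak (98438775 to 98439187) had a pileup of 12 (interval 6.20 to 21.0) and a fold of 7.93, at the 89.0th percentile of folds in its list. Its nearest base lay 1059 bp beyond the gene, and its summit lay 26505 bp from the start of Erbb2. The summit lay 1 bp from a start of Mien1, the convergent neighbour whose window is printed above. The IgG peak (98438871 to 98439082) had a pileup of 5 and a fold of 5.23 and lay wholly within the ALKBH5 peak, with summits 32 bp apart. The start of Erbb2 itself, in a window with 21 CpG dinucleotides, had no peak. These peaks were counted for Erbb2 by distance and lay at that start of Mien1 in both lists.

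Erbb3 (chromosome 10, 128567523 to 128589635) carried the tallest peak of the set. That ALKBH5 peak (128565848 to 128566510) had a pileup of 29 (interval 19.4 to 41.6) and a fold of 8.47, the highest fold among the 11. It stood at the 97.5th percentile of pileups and the 92.5th of folds. It lay 1013 bp below the lower end of Erbb3, over the start of Pa2g4, with the summit 389 bp upstream of that start. Pa2g4 encodes a protein known in human cells as ErbB3-binding protein 1, a nuclear and ribosome-associated factor. An IgG peak (128566022 to 128566394) lay wholly within it, with a pileup of 8 (3.45 to 15.8) and a fold of 5.59, the tallest of the 5 IgG peaks. The summits were 257 bp apart, where the median over the 1849 overlapping pairs of peaks was 125 bp (quartiles 62 and 195). The second ALKBH5 peak (128583832 to 128584031) was inside the gene, 5765 bp from the higher end and 16347 bp from the lower end, with 7 fragments stacked and a fold of 5.33. It ended 406 bp short of the microRNA gene Mir6917 and had no IgG peak.

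Shc1 (chromosome 3, 89418551 to 89430029, plus strand) had an ALKBH5 peak at each end and no IgG peak. The peak at the start (89418250 to 89418725) had a pileup of 21 (interval 13.0 to 32.1) and a fold of 5.95, with the summit 57 bp downstream of the start. It covered all 300 bp of the printed window. It also reached the start of Cks1b, a gene for a cell cycle kinase subunit, which is transcribed the other way from 260 bp away, so the peak cannot be assigned to one of the pair. The peak at the other end (89430244 to 89430476) had a pileup of 11 (5.49 to 19.7) and a fold of 7.41. Its summit lay 345 bp beyond Shc1 and 160 bp downstream of a start of Pygo2, a gene for a coactivator of Wnt signalling. The taller peak thus had the lower fold: its local background was 2.70 fragments against 0.62 for the other. The second annotated start of Shc1, in a window with 4 CpG dinucleotides, was not touched.

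Grb2 (chromosome 11, 115644045 to 115708597, minus strand) had 2 ALKBH5 peaks, both at its 5′ end, and no IgG peak. The first (115708375 to 115708873) covered the 5′ end, with a pileup of 15 (interval 8.40 to 24.7), a fold of 6.72 and the summit 148 bp upstream. The other (115709043 to 115709421) had a pileup of 12 (6.20 to 21.0) and a fold of 5.37, with the summit 683 bp upstream. They were 169 bp apart, and no other protein-coding gene lay within 5 kb of either. Its promoter windows in the table are at internal starts, with 3 and 7 CpG dinucleotides, and neither was touched.

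Sos1 (chromosome 17, 80393752 to 80480453, minus strand) had 2 ALKBH5 peaks. The peak at the start (80480388 to 80480588) had a pileup of 12 (interval 6.20 to 21.0) and a fold of 6.91, with the summit 13 bp upstream of the start. An IgG peak (80480527 to 80480730) with 5 fragments stacked and a fold of 5.23 shared 62 bp with it, which was 30.8% of the ALKBH5 peak and 30.4% of the IgG peak. The IgG summit lay 139 bp upstream of the start, outside the ALKBH5 peak. The second ALKBH5 peak (80391741 to 80391948) had a pileup of 6 and a fold of 5.93 and lay 1804 bp beyond the 3′ end of Sos1, inside Arhgef33, which overlaps Sos1. It was the peak farthest from its gene among the 11.

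Hras (chromosome 7, 141189934 to 141194019, minus strand) had no peak in either list. The nearest ALKBH5 peak lay 16933 bp away, with 19 fragments stacked and a fold of 5.92, and 266 bp from a start of Rnh1. The nearest IgG peak lay 93442 bp away. Hras and its neighbour Lrrc56 are transcribed away from each other from starts 92 bp apart, an arrangement like that of Shc1 and Cks1b, where a peak was listed. Among the 8 genes the closest ALKBH5 peak left out by the 5 kb limit was one 15331 bp from Grb2, with 29 fragments stacked and a fold of 8.57, so no peak lay just outside the limit.

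Nras (chromosome 3, 103058285 to 103067914, plus strand) had 1 peak in each list, both at its start. The ALKBH5 peak (103058149 to 103058415) had a pileup of 12 (interval 6.20 to 21.0) and a fold of 8.33, at the 91.7th percentile of folds, with the summit 22 bp upstream of the start. The IgG peak (103058354 to 103058545) had a pileup of 4 (1.09 to 10.2) and a fold of 4.36, with the summit 151 bp downstream and outside the ALKBH5 peak. They shared 62 bp, 23.2% of the ALKBH5 peak and 32.3% of the IgG peak.

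**Figure D2:**
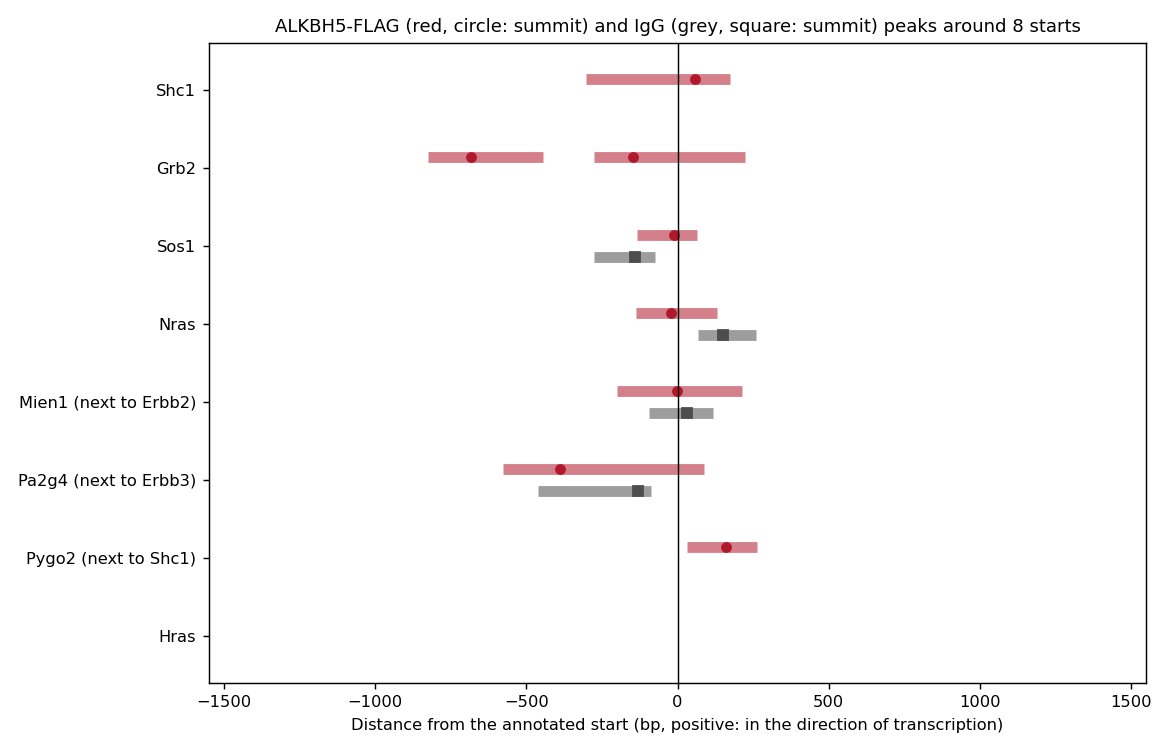
Extent of the ALKBH5-FLAG peaks (red bars, circle at the summit) and IgG peaks (grey bars, square at the summit) around 8 annotated starts, as distance from the start in bp, positive in the direction of transcription. The ALKBH5 summits at Sos1, Nras and Mien1 lie within 22 bp of the start, the IgG summits at Sos1 and Nras lie 139 and 151 bp to either side, and Hras has no peak.

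Taking the 11 ALKBH5 peaks as a set, pileups ran from 5 to 29 with a median of 12, where the whole list had a median of 9 (quartiles 6 and 13). Folds ran from 5.32 to 8.47 with a median of 6.72, against 5.63 (4.84 and 6.73) in the whole list. Of the 11, 8 were above the list's median pileup and 8 above its median fold. Widths ran from 200 to 663 bp with a median of 267 bp, against 382 bp for the list. The 5 IgG peaks had pileups from 4 to 8 and folds from 4.36 to 5.59, beside list medians of 5 and 4.79.

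**Figure D3:**
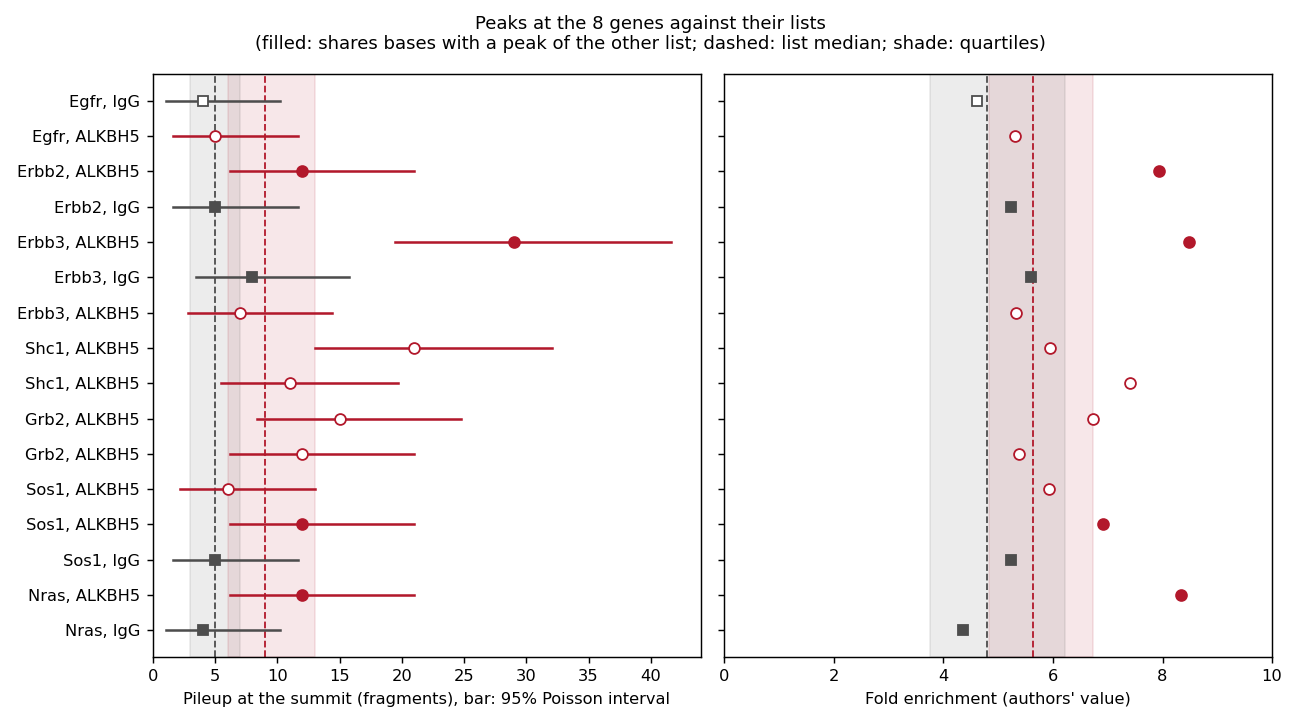
Pileup (fragments, left, bars giving the 95% Poisson interval for counting error) and the authors' fold enrichment (right) of the 16 peaks at the 8 genes, red circles for ALKBH5-FLAG and grey squares for IgG. Filled symbols share bases with a peak of the other list, dashed lines are list medians and shading runs from the lower to the upper quartile. The filled ALKBH5 symbols have folds from 6.91 to 8.47.

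An IgG peak shared bases with 4 of the 11 ALKBH5 peaks, at Erbb2, Erbb3, Sos1 and Nras, where the share over ALKBH5 peaks within 5 kb of a protein-coding gene was 15.2%. These 4 had pileups of 12 to 29 and folds of 6.91 to 8.47, and the 7 that shared none had pileups of 5 to 21 and folds of 5.32 to 7.41. The 3 highest folds of the set, at Erbb3, Nras and Erbb2, were at loci where IgG also had a peak, and the ranges overlapped. The whole list showed the same order: the 1835 ALKBH5 peaks that shared bases with IgG had a median pileup of 15 and a median fold of 7.14, and the 10498 that shared none had medians of 8 and 5.43. With an overlap of at least 50% of both peaks required, 2 of the 11 were shared, and with both lists held to a −log10 q of at least 5 the count was 0. Of the 5 IgG peaks, only that inside Egfr shared no base with ALKBH5. At Erbb2 and Erbb3 the IgG peak was enclosed, and at Sos1 and Nras the lists shared 62 bp each, against a median of 238 bp (quartiles 199 and 315) over all overlapping pairs. The lists bound the depth of the libraries only indirectly: the lowest listed pileup was 3 for ALKBH5 and 2 for IgG, and the smallest local background 0.129 and 0.042 fragments. The number of reads behind each library is not stated, so an ALKBH5 peak without an IgG peak, as at Shc1 and Grb2, cannot be told apart from one that the IgG library was too shallow to list.

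The promoter windows varied in base composition. An ALKBH5 peak touched 3 of the 9 windows of the 7 genes, where 26.1% of the 21263 windows of protein-coding genes were touched, and an IgG peak touched 1, that of Sos1 (177 bp), where 4.49% were. The ALKBH5 peak covered 185 bp of the Sos1 window and 186 bp of the Nras window. Over all windows the ALKBH5 share rose with the number of CpG dinucleotides, from 0.795% with 0 to 4 CpG to 32.8% with 10 to 19, 51.3% with 20 to 29 and 48.3% with 30 or more. The IgG share followed the same order at a lower level, with 0.133%, 5.47%, 10.1% and 7.25% in these classes. The relation to CpG number was thus not particular to ALKBH5. The windows touched by ALKBH5 held 13 (Shc1), 19 (Nras) and 28 (Sos1) CpG, while Hras held 34 and had no peak. The other untouched windows held 21 (Erbb2), 15 (Egfr), 3 and 7 (Grb2) and 4 (the second of Shc1), so touched and untouched windows overlapped in CpG number. Of all windows, those touched by ALKBH5 had a median of 24 CpG and a GC content of 63.3%, against 7 and 53.3% in the others. The GC content was 53.7% at Shc1, 52.3% at Nras, 70.0% at Sos1 and 69.0% at Hras.

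**Figure D4:**
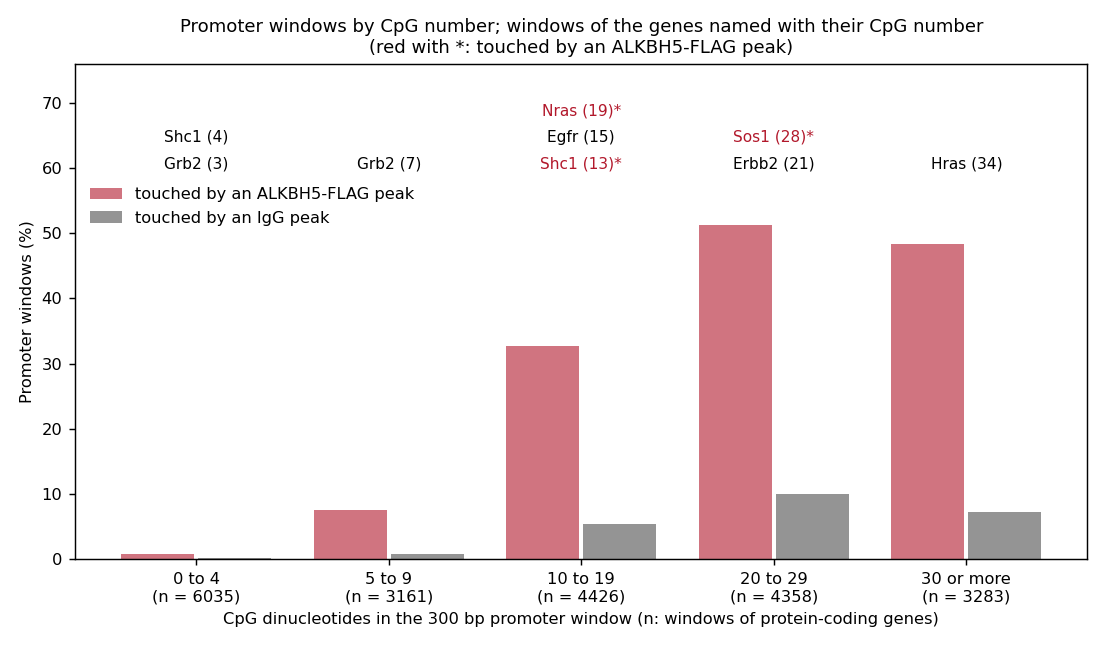
Share of the promoter windows of protein-coding genes (%, bars from 0) touched by an ALKBH5-FLAG peak (red) or an IgG peak (grey), by number of CpG dinucleotides in the 300 bp window. The windows of the 8 genes that have one are named above their class with their CpG number, in red with an asterisk where an ALKBH5 peak touched them. Hras, with 34 CpG, stands untouched in a class where 48.3% of windows were touched.

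No motif searched was present in all 3 touched windows. GGGCGG occurred once at Shc1, 3 times at Nras, 3 times at Hras and once at Egfr, and not at Sos1 or Erbb2, and 46.2% of all windows held it. CCGGAAG was found at Shc1 and Egfr and among the printed neighbours at Mien1, against 11.6% of windows. CCAAT occurred 4 times in the Shc1 window, part of which also lies in the window of Cks1b on the other strand. It was also present in untouched windows, those of Erbb2, Hras and Grb2 and the second of Shc1. Nras, Sos1 and Egfr held none, and 38.2% of all windows held at least 1. TGACTCA was found in the second window of Shc1 alone (4.66% of windows) and TATAAA in 1 internal window of Grb2 (12.6%). A match in these letters is a description of the sequence and not a site of binding.

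The other genes of the pathway were read from a list of 48. An ALKBH5 peak within 5 kb was listed for 27 of them (56.2%) and an IgG peak for 9, beside 43.2% and 12.6% of all protein-coding genes. Peaks at both were listed for 6 and at ALKBH5 alone for 21. The list was drawn up with earlier results of these data known, so the count describes it and no more.

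Among 11 ligand genes, 4 had an ALKBH5 peak. Tgfa, for transforming growth factor alpha, had a fold of 6.25 and a pileup of 9 at 87 bp from its start, and Areg, for amphiregulin, a fold of 4.10 and a pileup of 4 at 159 bp. Hbegf, for the heparin-binding growth factor, had 2 peaks, the stronger with a fold of 5.61, and an IgG peak. Nrg1, for neuregulin 1, had 2 in a gene of 1084 kb, the stronger with a fold of 5.32, and 2 IgG peaks. Ereg had a peak in the IgG list only, with a pileup of 2. Erbb4, the remaining receptor gene of the family, had a peak in neither list.

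Of 16 other adaptor, exchange factor and phosphatase genes, 9 had an ALKBH5 peak, and none of these 9 had an IgG peak. Over all protein-coding genes with an ALKBH5 peak, 75.3% had no IgG peak. The highest folds were 9.30 at Gab1, a docking protein (pileup 15), 8.96 at Sos2, the relative of Sos1 (pileup 11), 7.56 at Crk, an adaptor (pileup 17), and 7.14 at Ptpn11, for the phosphatase SHP2 (pileup 11). The Crk peak lay 31 bp and the Ptpn11 peak 34 bp from the start. The strongest Gab1 peak lay 27718 bp and the Sos2 peak 27711 bp from a start of the gene. Sos2 had this peak alone, while Sos1 had a peak at its start and another beyond its 3′ end. Of the 7 without an ALKBH5 peak, Nck2 and Rasgrp3 had an IgG peak.

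The Ras-related genes Rras, Rras2 and Mras each had an ALKBH5 peak, with folds of 8.30, 4.79 and, for the stronger of 2, 4.92. The Rras peak was 126 bp from the start, had a pileup of 42 and shared bases with an IgG peak of pileup 9, and the peaks of Rras2 and Mras had pileups of 6 and 5 and no IgG peak. Rras and Hras are both compact genes of about the same size, 3.71 and 4.09 kb, but Hras had no peak.

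Of 17 inhibitor genes, 11 had an ALKBH5 peak. The strongest were at Cblb, for a ubiquitin ligase that acts on receptor tyrosine kinases (fold 10.3, pileup 19), Rasa1, for a GTPase-activating protein of Ras (8.42, pileup 15), Rasal2, for another (7.65, pileup 14), and Rasa2 (6.59, pileup 11). The Cblb, Rasa1 and Rasal2 peaks lay 36, 64 and 32 bp from a start of the gene. Errfi1, Lrig1, Cbl, Cblc, Spry2 and Nf1 had none. IgG peaks were listed for Spred1, Socs5 and Rasa2.

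**Figure D5:**
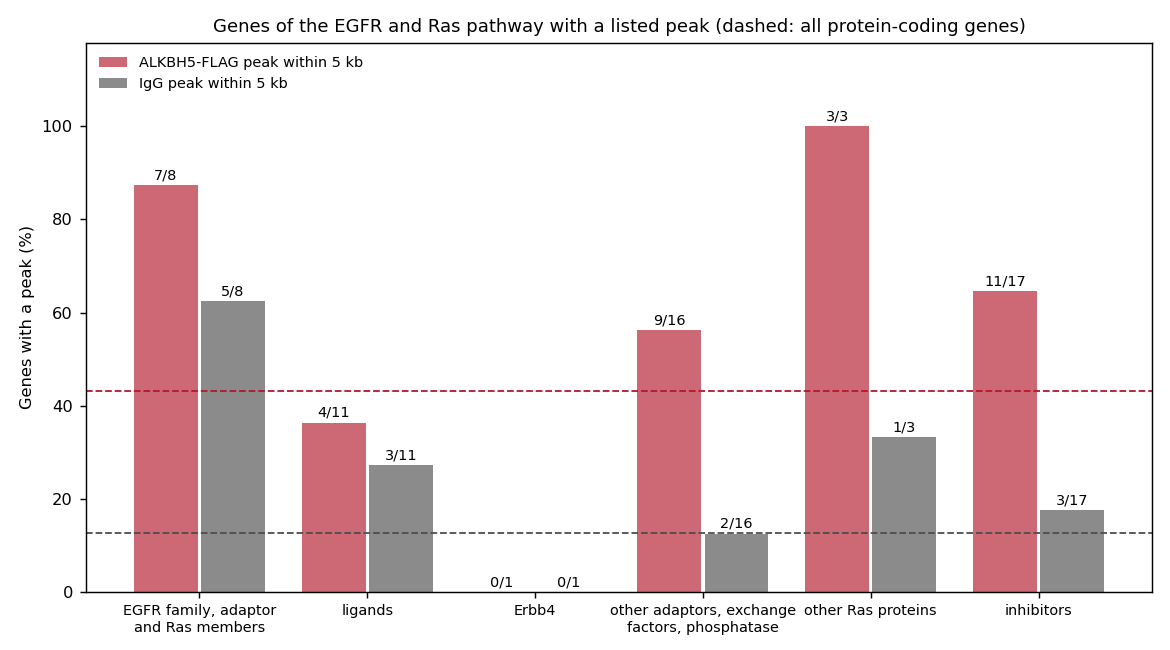
Share of genes (%, bars from 0, with counts above) that have an ALKBH5-FLAG peak (red) or an IgG peak (grey) within 5 kb, for the 8 genes and for the other pathway genes by class. Dashed lines give the shares over all protein-coding genes, 43.2% and 12.6%. The ligands (4 of 11) fall below the ALKBH5 line and the inhibitors (11 of 17) above it, with no test of either.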

How the data were processed

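CUT&Tag libraries of ALKBH5-FLAG and IgG from Hepa1-6 cells were compared, 1 of each, grouped by sample title. Tools named in the submitters' processing notes are Bowtie2 2.2.9, SAMtools 1.3.1, MACS2 and R 3.4.1, on GRCm38 (mm10), with no settings. There is 1 peak table per library, in the MACS2 layout per the file headers. The authors' pileup is a coverage signal (fragments at the summit), and the authors' fold enrichment is a ratio. Columns 7 and 9 had no readable header. They were taken by place as the authors' −log10 p-value and −log10 q-value, and a Poisson tail of pileup and background gave column 7 within 1% plus 0.01 for 100% of ALKBH5 and 99.5% of IgG peaks. The largest q was 0.0494 and 0.0455. Read totals are unknown.

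Local background was computed as (pileup + 1) / fold − 1. Genes and promoter windows came from RefSeq tables of GRCm38.p6, and windows were present for 17492 protein-coding genes (79.9%). Starts were those of the windows and the 5′ ends of gene spans, the latter only for genes whose strand the windows gave. Genes without a window, such as Erbb3, had no start of their own in the distances. Sharing meant at least 1 bp. Interval counting was tested on simulated data. Python 3.11.15, pandas 2.3.3 and scipy 1.17.1 were used. There was no test between groups. A pathway gene and a neighbouring gene are not reported here. All 8 genes are named, and of the other pathway genes mainly those of highest fold in each class. The genes, lists and alternatives were chosen with earlier results of these data known.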

Additional observations from a re-analysis of the deposited data

How the results depend on the processing

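Over 8 counts and 48 alternatives, 33 values stayed within 1.5 times the value reported, among them all 7 for the number of genes with an ALKBH5 peak (5 to 7). The number with an IgG peak, 5, was 2 without a margin around the gene, 3 within 1 kb, 3 at a fold of 5 or more and 0 when both lists were held to a −log10 q of at least 5. The number with an ALKBH5 peak and no IgG peak, 2, was 4 without a margin, 4 at a fold of 5 or more and 6 at that q. Shares over all protein-coding genes are not given for these alternatives. The 11 ALKBH5 peaks were 6 without a margin and 7 when peaks that share bases with IgG were left out, which also took the genes with a gene-end peak from 4 to 2 and the peaks at the gene's own start from 5 to 3. The 4 shared peaks were 2 with an overlap of at least 50% of both peaks, 2 within 1 kb of the gene and 0 at that q. The pathway genes with a peak, 27, were 14 at that q. The count at a gene's own start and its alternatives were added after the data were seen. The counts that use IgG rest on peaks of 4 to 8 fragments. No paired analysis was possible because there is 1 library per group.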
